A study of Homo sapiens with 15 samples.

Results

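Rocaglamide (Roc) was added to 2 human osteosarcoma lines, and this account asks in which genes the transcript response to it differed between them. The measure was the interaction: the log2 change from vehicle to Roc in Saos2 cells minus the log2 change from vehicle to Roc in MG-63 cells, called the response difference from here on. It is positive where the response was more upward, or less downward, in Saos2. It rests on 10 of the 15 messenger RNA libraries of the series: MG-63 with 0.04% DMSO (n = 2) or 25 nM Roc (n = 2), and Saos2 with DMSO (n = 3) or 40 nM Roc (n = 3), all harvested after 24 h from cells labelled WT. The other 5 libraries, from cells given (−)-DDR at 5 nM (MG-63) or 7 nM (Saos2), entered the fit for their share in the estimate of the spread, and their values are set beside those of Roc in 1 place.

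Rocaglates are plant-derived compounds that clamp the RNA helicase eIF4A onto purine-rich stretches of messenger RNA and so block the scanning of some 5′ leaders. The helicase works within eIF4F, the complex that brings ribosomes to capped messages. Only transcript levels were read here, not their translation, so a higher transcript level under Roc need not mean more protein. MG-63 grows as fibroblast-like, immature cells, whereas Saos2 has features of a more mature osteoblast.

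The labels call the libraries biological replicates, except that 1 MG-63 Roc library is titled replicate 2 alone. Nothing else is given on how the cultures were separated, so each p-value measures the spread between these samples. The doses differ because each was the growth IC50 of Roc for its line, and the count table of each line carries its own annotation release. Line, dose and table therefore cannot be told apart in any difference given here. Nor can fewer cells of a kind be told apart from less RNA per cell in bulk RNA.

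Total counts ran from 24506297 to 42541127 per library, of which 98.9% to 99.5% fell on the 52684 gene IDs found in the tables of both lines. The osteoblast genes set the lines apart. ALPL, the alkaline phosphatase of bone, lay between 845 and 1015 counts-per-million units (CPM, each count divided by its library size after scaling by the trimmed mean of M values, TMM) in the Saos2 libraries and at no more than 0.208 CPM in MG-63. IBSP, a mineral-binding matrix protein, had 0 counts in every MG-63 library of DMSO and Roc, and SP7, a transcription factor of osteoblasts, had at most 3, whereas both were high in Saos2. In Saos2, IBSP fell from between 83.3 and 103.5 CPM in DMSO to between 9.91 and 10.8 CPM in Roc. SP7 rose there from between 130 and 148 CPM to between 279 and 295 CPM. The response differences of IBSP and SP7 were not called. With so few MG-63 counts, the missing calls do not mean that the lines responded alike. At this depth MG-63 thus held next to no RNA of these 3 osteoblast markers. CDKN2A had at most 1 count in an MG-63 library. Marker sums for blood and endothelial cells stayed under 4 CPM in every group. In Saos2 the sum of 6 neuronal markers was 64.1 to 67.9 CPM in DMSO and 72.3 to 87.0 CPM in Roc, with 2 of 3 tested members rising and no called response difference, and that of 8 epithelial markers 15.2 to 21.2 and 14.8 to 15.2 CPM, with 1 of 2 tested members higher. Both sums stayed under 3 CPM in MG-63, and their part in the results was not tested.

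Of 18842 genes tested, 13808 were protein-coding, and of these 2290 (16.6%) had a called response difference. A call is an adjusted p of at most 0.05 with an absolute log2 value of at least 0.5, from edgeR's quasi-likelihood test with Benjamini-Hochberg adjustment over all 18842 genes, and every adjusted p below comes from that test. In 1465 genes (10.6%) the response was higher in Saos2, and in 825 (5.97%) it was lower. Other scalings moved this split: DESeq2's size factors in edgeR gave 1195 higher and 1007 lower, upper quartile scaling 1071 and 1125, TMM within each line 1177 and 1025, and total counts alone 974 and 1195. The DESeq2 test gave 1261 and 1106. Against the median response difference of all genes, 0.04 with TMM, total counts moved that median to −0.075, so statements on balance between directions hold for the TMM scale only.

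Most called differences were changes in Saos2 alone. Among the 1465 higher genes, 986 (67.3%) rose in Saos2 with no call in MG-63, and the median log2 change was 0.74 in Saos2 and −0.07 in MG-63. Among the 825 lower genes, 540 (65.5%) fell in Saos2 with no call in MG-63, with medians of −0.72 in Saos2 and 0.14 in MG-63. A further 107 higher genes fell in MG-63 only, and 86 lower genes rose in MG-63 only. In the same fit Roc was called against DMSO in 772 genes in MG-63 (5.59%), 387 up (2.8%) and 385 down (2.79%), and in 3640 in Saos2 (26.4%), 1965 up (14.2%) and 1675 down (12.1%), with 2 libraries a group in the first and 3 in the second. Left-out libraries moved the MG-63 counts most: without DMSO replicate 2 of MG-63, 157 genes fell, and without Roc replicate 2, 222 rose. The median absolute change over all tested genes was 0.21 in MG-63 and 0.34 in Saos2.

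**Figure D1:**
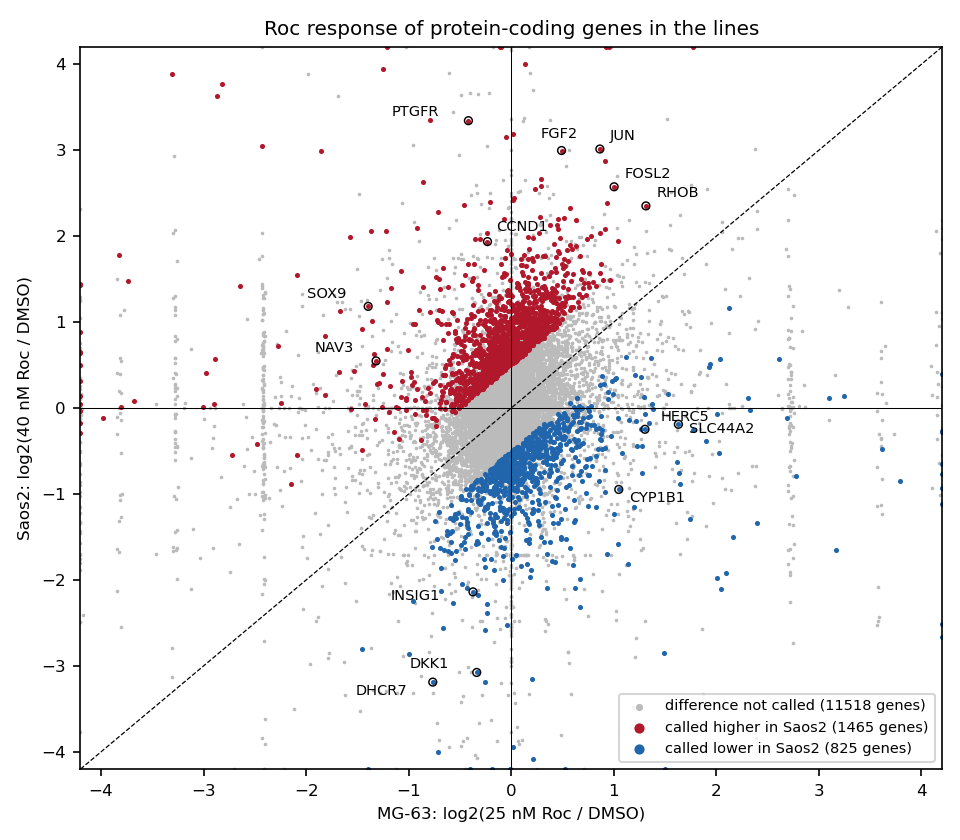
Log2 change from DMSO to Roc in MG-63 (x axis) against that in Saos2 (y axis), 1 point per tested protein-coding gene, with called response differences in color and points beyond 4.2 drawn at the edge. The 1465 genes with a higher response in Saos2 lie above the diagonal and the 825 with a lower one below it, most of them near 0 on the x axis.

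The called genes also differed in build. The median transcript length was 5342 bases for higher genes, 3993 for lower genes and 3930 for all tested genes, and the median GC content was 42.1%, 52.7% and 47.7%. With a trend on length and GC content removed from each library, an alternative chosen after seeing the data, 1377 genes were higher and 765 lower. Of the 2290 calls, 1725 (75.3%) were kept and none was called in the opposite direction.

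The early-response transcription factors JUN and FOSL2 stood among the strongest differences. JUN, a subunit of the AP-1 transcription factor (GRCh37 chr1:59242517-59249720, minus strand), was at 165 and 169 CPM in DMSO and at 316 and 291 CPM in Roc in MG-63. In Saos2, JUN was at 22.0, 19.5 and 22.7 CPM in DMSO and at 183, 160 and 176 CPM in Roc. Roc libraries lay above DMSO libraries in both lines, and the Saos2 libraries reached about the DMSO level of MG-63 only with Roc. The response difference was 2.15 ± 0.14 (SE, adjusted p = 4.6e-10), and on the log2 scale JUN rose by 0.86 in MG-63 and by 3.01 in Saos2.

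The JUN promoter is known for an element close to the AP-1 site, TGACATCA, to which JUN-containing dimers bind. It is shown here because JUN is both a main result and a gene whose product binds it, with the element in capitals in 40 bases of RefSeq sequence (GRCh38.p14 chr1:58784091-58784130, minus strand), 67 to 60 bases before the RefSeq start.
JUN: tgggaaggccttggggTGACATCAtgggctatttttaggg
The search covered both strands of the part of each 300-base promoter window that lies before the RefSeq start. These letters were found in 2.45% of 27305 RefSeq promoters, in 1.47% of those of tested protein-coding genes and in 3 of 10 of the AP-1 family. They were in 1.45% of promoters of genes with a higher response and 1.6% of those with a lower one. The AP-1 site itself, TGANTCA, was in 0 of 10 AP-1 family promoters and in 4.04% of those of tested protein-coding genes. A match is a description of the letters and not a measured binding site.

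FOSL2, a Fos-family partner of JUN, was at 63.7 and 60.9 CPM in DMSO and at 122 and 127 CPM in Roc in MG-63. In Saos2, FOSL2 was at 149, 142 and 146 CPM in DMSO and at 879, 865 and 862 CPM in Roc. It rose in both lines with no overlap of libraries, and the step was larger in Saos2, with a response difference of 1.57 ± 0.11 (adjusted p = 1.4e-09). Within the AP-1 family 4 of 13 tested genes were higher (JUN, FOSL2, JDP2 and FOSL1) and none lower, with a median of 0.58. The higher share was 30.8%, against 10.6% higher and 5.97% lower of all tested protein-coding genes. JDP2, a dimerization partner that represses AP-1 targets, rose in Saos2 only (response difference 1.28 ± 0.24, adjusted p = 0.00041). MYC, the growth-promoting transcription factor, rose in Saos2 by 1.13, while its MG-63 value of 0.39 was under the fold limit, with a response difference of 0.74 ± 0.11 (adjusted p = 2.7e-05). In its list of EGR, IER and NR4A genes 3 of 18 tested were higher and 1 lower (16.7% and 5.56%, against 10.6% and 5.97% of all). The lower one, the early-response factor EGR1, was chosen after its values were seen. In Saos2, EGR1 was at 32.2, 47.0 and 35.8 CPM in DMSO and at 7.70, 9.54 and 7.08 CPM in Roc. It was not called in MG-63, and the response difference was −1.28 ± 0.37 (adjusted p = 0.019), a call that 3 of 22 alternatives lost.

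RHOB, a small GTPase of endosomes and actin control, rose in both lines. It was at 23.4 and 26.0 CPM in DMSO and 54.1 and 68.6 CPM in Roc in MG-63, and at 22.2, 24.2 and 28.8 CPM in DMSO and 136, 120 and 128 CPM in Roc in Saos2. DMSO levels of the lines overlapped and Roc levels did not, and the response difference was 1.04 ± 0.16 (adjusted p = 6.8e-05). RHOU, an atypical small GTPase, was at 6.23 and 4.69 CPM in DMSO and 4.19 and 4.99 CPM in Roc in MG-63, and at 3.38, 4.04 and 3.76 CPM in DMSO and 15.5, 16.5 and 13.8 CPM in Roc in Saos2. Its MG-63 groups overlapped and its Saos2 groups did not (response difference 2.27 ± 0.25, adjusted p = 5e-07). RND3, which antagonizes RHOA, and ROCK2, a kinase that RHOA activates, rose in Saos2 only, with response differences of 1.34 and 1.22.

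Of 21 tested genes that restrain or feed back on MAP kinase signaling, 6 were higher and none lower, with a median of 0.24. The higher share was 28.6%, against 10.6% of all. In MG-63, 1 of them rose and 4 fell, against 7 and 4 in Saos2. DUSP6, a cytosolic phosphatase of ERK, was at 54.6 and 56.2 CPM in DMSO and 21.5 and 21.8 CPM in Roc in MG-63, and at 0.143, 0.181 and 0.496 CPM in DMSO and 0.455, 0.660 and 0.584 CPM in Roc in Saos2. It fell in MG-63 and rose in Saos2 from a level under 1 CPM, where the groups overlapped (response difference 2.37 ± 0.39, adjusted p = 0.00012). DUSP4, another phosphatase called higher and chosen after its values were seen, was at 0 in all Saos2 DMSO libraries. It reached at most 0.234 CPM with Roc there, so no fold is given, and 8 of 21 alternatives lost its call. SPRED1, an inhibitor of the RAS to RAF step, was at 68.1 and 69.4 CPM in DMSO and 57.2 and 52.7 CPM in Roc in MG-63, and at 26.9, 26.1 and 29.6 CPM in DMSO and 72.7, 76.1 and 74.2 CPM in Roc in Saos2. The Saos2 Roc libraries thus passed the MG-63 DMSO libraries (response difference 1.76 ± 0.12, adjusted p = 1.3e-09). DUSP16, a phosphatase of JNK and p38, rose in both lines, by 0.86 in MG-63 and 2.03 in Saos2. SPRY2, another inhibitor of receptor tyrosine kinase signaling, fell by 0.65 in MG-63, while its Saos2 value of 0.47 was under the fold limit (response difference 1.12 ± 0.20, adjusted p = 0.00033).

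**Figure D2:**
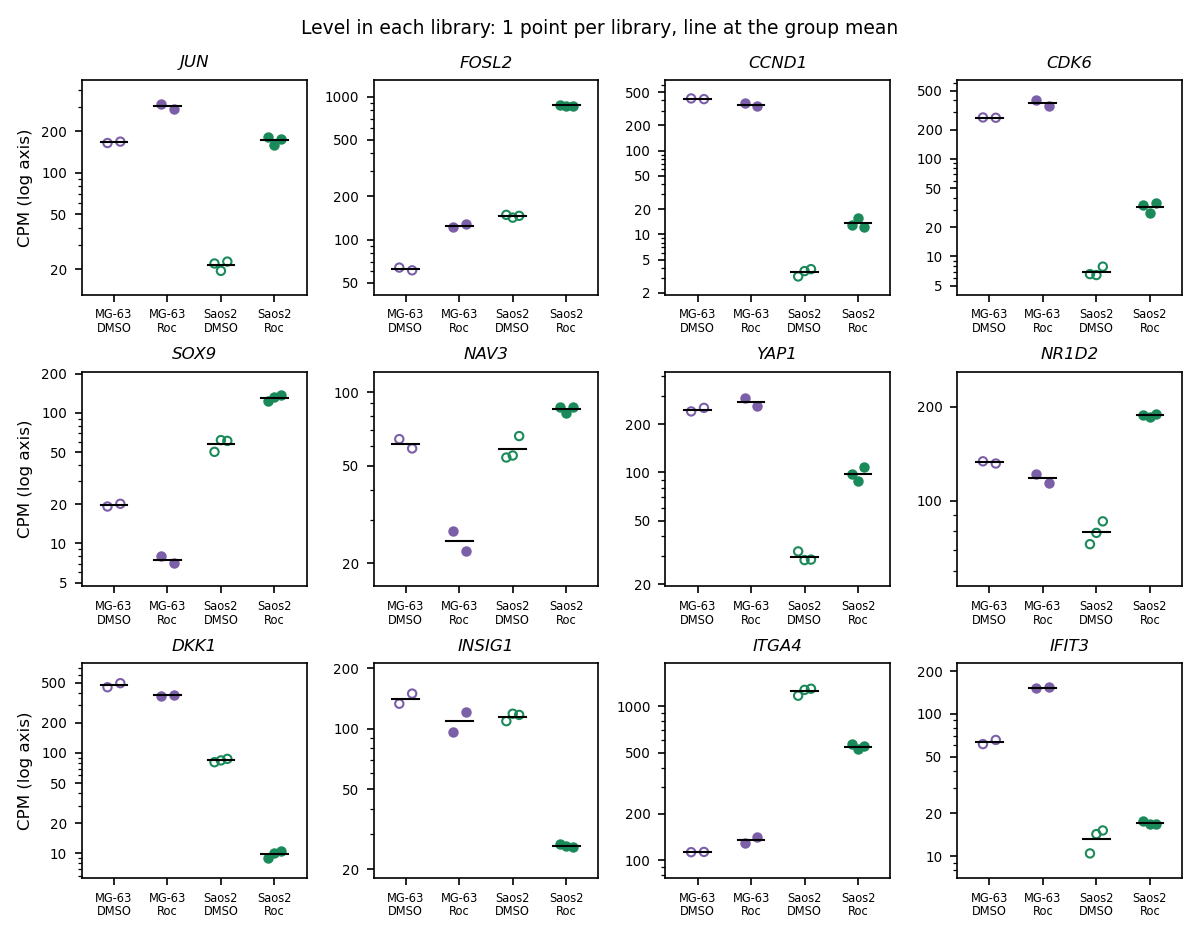
CPM (log axis) of 12 genes in the 10 DMSO and Roc libraries, 1 point per library, with a line at the group mean. JUN, FOSL2, CCND1 and CDK6 rose in Saos2, SOX9 and NAV3 fell in MG-63 and rose in Saos2, and DKK1, INSIG1 and ITGA4 fell in Saos2.

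Genes of the G1 phase were higher in 6 of 26 tested cases (23.1%, against 10.6% of all) and lower in none, with a median of 0.15. CCND1, which encodes cyclin D1 (chr11:69455924-69469242, plus strand), was at 420 and 412 CPM in DMSO and 368 and 341 CPM in Roc in MG-63. In Saos2 it was at 3.15, 3.65 and 3.85 CPM in DMSO and 12.9, 15.6 and 12.4 CPM in Roc. It rose in Saos2 from a level far under that of MG-63 and was not called in MG-63, with a response difference of 2.17 ± 0.14 (adjusted p = 4.6e-10). CDK6, a kinase partner of cyclin D, was at 266 and 264 CPM in DMSO and 404 and 353 CPM in Roc in MG-63, and at 6.59, 6.44 and 7.86 CPM in DMSO and 33.7, 27.9 and 35.7 CPM in Roc in Saos2. It rose in both lines, by 0.51 and 2.21, with a response difference of 1.70 ± 0.15 (adjusted p = 4.8e-08). CDKN1B, the inhibitor p27, rose in Saos2 only, so that both an activating pair and an inhibitor of the same step were higher (response difference 0.65 ± 0.13, adjusted p = 0.0011).

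The largest shares of higher genes were in the Hippo and circadian clock lists. The Hippo kinases restrain YAP1, a coactivator that works with TEAD factors. Of 23 tested genes of that list, 10 were higher and 1 lower (43.5% and 4.35%, against 10.6% and 5.97% of all), with a median of 0.41. YAP1 was at 241 and 253 CPM in DMSO and 293 and 262 CPM in Roc in MG-63, and at 32.0, 28.3 and 28.5 CPM in DMSO and 97.1, 88.7 and 108 CPM in Roc in Saos2. It was not called in MG-63 and rose in Saos2 with no overlap (response difference 1.56 ± 0.13, adjusted p = 2e-08). LATS2, a kinase that inactivates YAP1, rose in Saos2 by 1.77, while its MG-63 value was 0.33 (response difference 1.44 ± 0.13, adjusted p = 5.3e-08). AJUBA, a LIM protein that inhibits LATS kinases, rose by 0.91 in MG-63 and 2.08 in Saos2. CYR61, a secreted YAP target chosen after its values were seen, rose in Saos2 by 1.44 with a response difference of 1.19 ± 0.15 (adjusted p = 4.1e-06). Kinases, their coactivator and a target were therefore among the higher genes together.

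Of 18 tested clock genes 10 were higher and none lower (55.6%), with a median of 0.57. Without DMSO replicate 2 of MG-63, and likewise with total counts alone, 6 were higher. NR1D2, a heme-binding repressor of the clock (chr3:23986777-24022108, plus strand), was at 134 and 132 CPM in DMSO and 122 and 114 CPM in Roc in MG-63, and at 72.8, 79.1 and 86.1 CPM in DMSO and 187, 185 and 190 CPM in Roc in Saos2. Its Saos2 groups did not overlap, and its MG-63 value was not called (response difference 1.41 ± 0.12, adjusted p = 2.3e-08). PER3, a period protein of the repressing arm, was at 15.1 and 12.9 CPM in DMSO and 8.38 and 9.18 CPM in Roc in MG-63, and at 101, 105 and 109 CPM in DMSO and 175, 188 and 181 CPM in Roc in Saos2. It fell in one line and rose in the other (response difference 1.46 ± 0.15, adjusted p = 2.7e-07). BHLHE40, which represses transcription from E-boxes, was higher by 1.25 ± 0.15 (adjusted p = 1.5e-06), and TEF, an output factor that binds D-boxes, by 1.62 ± 0.29 (adjusted p = 0.00031).

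The clock activators CLOCK and ARNTL bind the E-box CACGTG. This element was sought in the same part of the RefSeq promoter windows because 10 of the list were higher. It was found in 5 of 17 clock gene promoters (29.4%), in 8.81% of tested protein-coding genes and in 6.49% of all 27305 promoters, searched on both strands. Among genes with a called difference it was in 8.21% of promoters on the higher side and 10.9% on the lower side. Matches of 3 members are shown with the E-box in capitals, each with its flanks on the gene's strand in GRCh38.p14. BHLHE40 (chr3:4979187-4979213, plus strand) and TEF (chr22:41367244-41367281, plus strand) had a called difference, and PER1 (chr17:8152556-8152593, minus strand) had none.
BHLHE40: tccaaCACGTGagactcatgtgatgaa
TEF: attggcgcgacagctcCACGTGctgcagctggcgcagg
PER1: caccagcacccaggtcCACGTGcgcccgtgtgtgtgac
The element sat 245, 195 and 173 bases before the RefSeq start in these genes.

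Growth factor pathways held higher genes as well. Of 41 tested genes of TGF-beta and BMP signaling, 13 were higher and 3 lower (31.7% and 7.32%, against 10.6% and 5.97% of all). The median was 0.36, and 8 were higher without DMSO replicate 2 of MG-63. FST, a secreted antagonist of activin, was at 186 and 201 CPM in DMSO and 186 and 178 CPM in Roc in MG-63, and at 39.2, 40.1 and 40.4 CPM in DMSO and 115, 110 and 119 CPM in Roc in Saos2. It rose in Saos2, and its MG-63 groups met at 186 CPM (response difference 1.61 ± 0.11, adjusted p = 4.6e-10). SKIL, a corepressor of SMADs, and GREM1, a secreted antagonist of BMPs, were higher by 1.26 and 1.11, and SMAD5, which relays BMP signals, by 0.79. TGFB1, the ligand itself and chosen after its values were seen, fell in Saos2 only (response difference −0.80 ± 0.13, adjusted p = 6.9e-05). BAMBI, a pseudoreceptor that antagonizes the pathway, also chosen after its values were seen, rose in both lines and less in Saos2 (−0.53 ± 0.18, adjusted p = 0.04), a call that 11 of 22 alternatives lost.

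NOTCH pathway genes were higher in 4 of 22 tested cases and lower in 2, with a median of 0.14. The shares of 18.2% and 9.09% both lay above those of all genes, 10.6% and 5.97%. HEY1, a repressor that NOTCH induces, was at 3.23 and 3.88 CPM in DMSO and 6.92 and 6.51 CPM in Roc in MG-63, and at 3.46, 3.04 and 4.59 CPM in DMSO and 25.7, 29.6 and 26.4 CPM in Roc in Saos2. DMSO levels were alike and Roc levels were not (response difference 1.96 ± 0.25, adjusted p = 4e-06). JAG1, a NOTCH ligand, and MAML2, a coactivator, were higher by 1.37 and 1.57, whereas the receptor NOTCH1, chosen after its values were seen, rose in MG-63 only (response difference −0.77 ± 0.16, adjusted p = 0.00094).

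Chromatin coregulators were higher in 14 of 49 tested genes and lower in 2 (28.6% and 4.08%), with a median of 0.29. BCOR, a partner of the repressor BCL6, was at 50.0 and 48.7 CPM in DMSO and 74.4 and 72.5 CPM in Roc in MG-63, and at 157, 164 and 166 CPM in DMSO and 626, 579 and 602 CPM in Roc in Saos2. It rose in both lines with no overlap (response difference 1.32 ± 0.11, adjusted p = 1.7e-08). EP300, a histone acetyltransferase, rose by 0.69 in MG-63 and 1.60 in Saos2. NRIP1, which nuclear receptors recruit as a corepressor, rose by 0.67 and 1.77, and MED13, of the Mediator kinase module, by 1.13 in Saos2 only.

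Genes for lipid and survival signaling through PI3K were higher in 9 of 30 tested cases and lower in 2 (30% and 6.67%, against 10.6% and 5.97% of all). Among them the catalytic subunit PIK3CA rose in Saos2 only (1.02 ± 0.13, adjusted p = 5.6e-06). BCL2 family and caspase genes were divided, with 5 of 30 tested higher and 4 lower (16.7% and 13.3%, against 10.6% and 5.97% of all). Without DMSO replicate 1 of MG-63, 1 of them was lower. BCL2, which restrains apoptosis, rose in both lines with a response difference of 1.29 ± 0.16 (adjusted p = 3.7e-06). XIAP, an inhibitor of caspases, rose in Saos2 only, with 1.19. The 4 lower members of the list are not described here, so the named ones do not stand for the list. BIRC2, a ubiquitin ligase related to XIAP but counted in the NF-kB list, rose in Saos2 only, with 1.41. NFKB1, the p105 precursor of NF-kB, was higher by 1.00 ± 0.15 (adjusted p = 2.7e-05). In the NF-kB list 5 of 24 genes were higher (20.8%) and none lower, and the count was 3 without either MG-63 Roc library or without Roc replicate 3 of Saos2. Of these, CXCL8 reached at most 0.257 CPM in Saos2 and 1.17 CPM in MG-63, and 5 of 21 alternatives lost its call. BIRC3, also called higher and chosen after its values were seen, lay between 0.181 and 1.82 CPM in Saos2, and 7 of 22 alternatives lost its call.

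Other genes with a higher response and the smallest p included NR3C1, the glucocorticoid receptor. It was at 320 and 343 CPM in DMSO and 366 and 345 CPM in Roc in MG-63, and at 60.7, 69.9 and 71.3 CPM in DMSO and 207, 195 and 205 CPM in Roc in Saos2. Its MG-63 value was not called, and the response difference was 1.48 ± 0.12 (adjusted p = 5.8e-09). DSEL, an enzyme that makes dermatan sulfate, was at 96.3 and 106 CPM in DMSO and 84.4 and 84.0 CPM in Roc in MG-63, and at 82.6, 82.0 and 85.3 CPM in DMSO and 267, 235 and 257 CPM in Roc in Saos2. From similar DMSO levels it rose in Saos2 only (1.87 ± 0.12, adjusted p = 4.6e-10). SERTAD2 and IRF2BP2, both transcriptional coregulators, were higher by 1.75 and 1.52. FGF2, a growth factor, was at 164 and 173 CPM in DMSO and 254 and 219 CPM in Roc in MG-63, and at 0.286, 0.136 and 0.496 CPM in DMSO and 2.09, 2.37 and 2.92 CPM in Roc in Saos2. Its Saos2 rise started from under 1 CPM and stayed far below MG-63 (2.51 ± 0.28, adjusted p = 9.5e-07). PTGFR, the prostaglandin F receptor, had a response difference of 3.76 ± 0.35 (adjusted p = 7.6e-08), and its Saos2 Roc libraries reached no more than 2.71 CPM against 65.9 or more in MG-63.

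**Figure D3:**
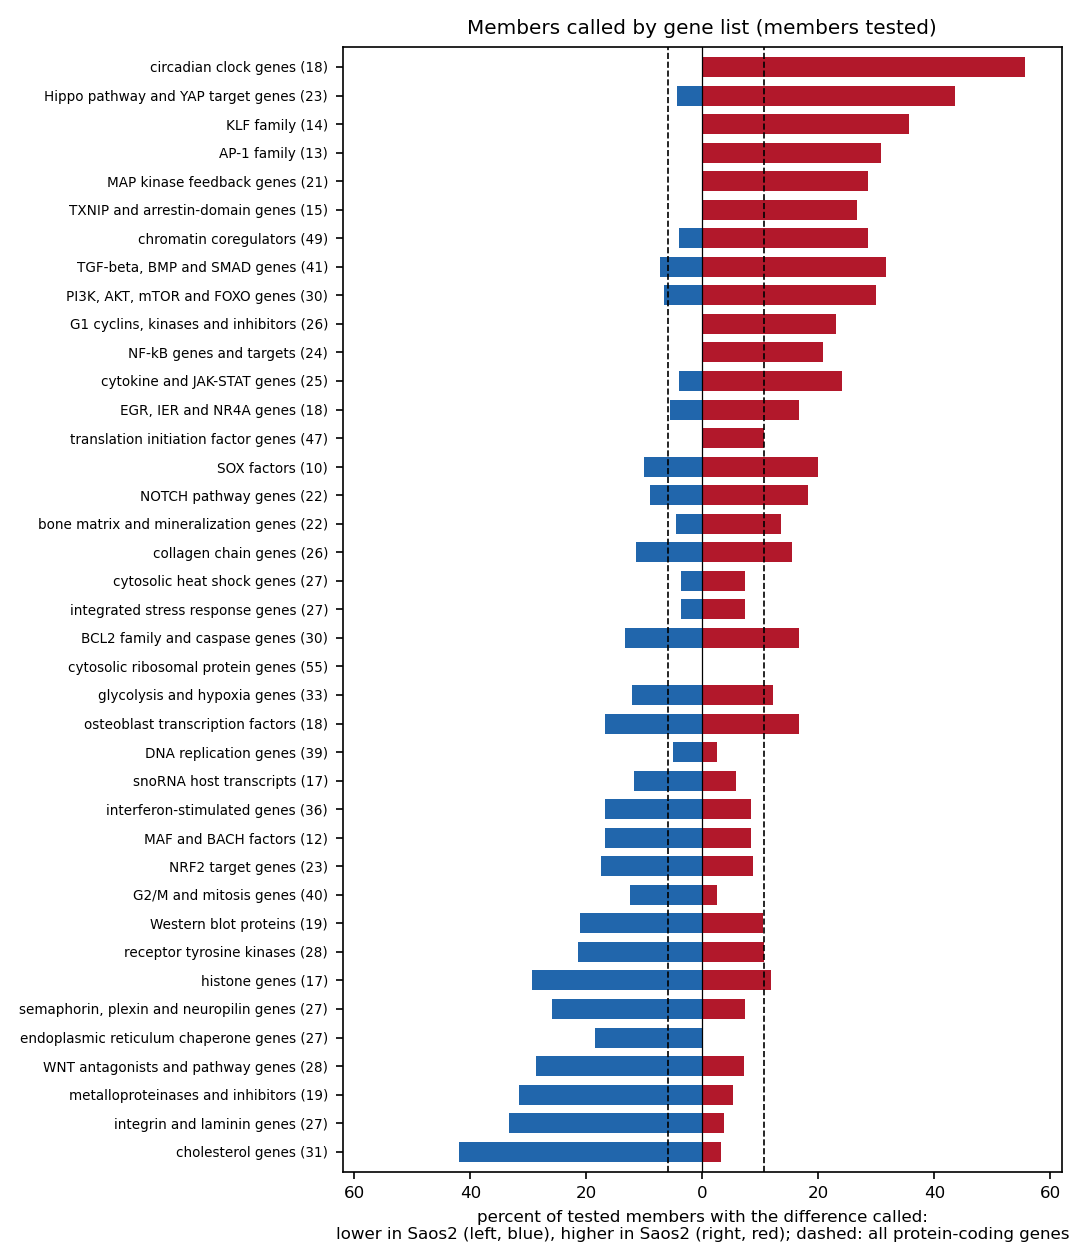
Share of tested members with a higher or a lower response in Saos2, in percent, for 39 gene lists, with dashed lines at the shares of all tested protein-coding genes (10.6% higher and 5.97% lower). The clock and Hippo lists hold the largest shares of higher genes, and the cholesterol list the largest share of lower genes.

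Where edgeR called no member on one side, the count there at an unadjusted p under 0.05 was 0 for the AP-1, NF-kB and clock lists (lower). It was 3 for MAP kinase feedback genes, 2 for G1 genes and 9 for initiation factors (lower), and 3 for chaperones of the endoplasmic reticulum (higher). DESeq2 called 2 MAP kinase feedback genes and 1 G1 gene lower and none in the others, and limma-voom called none.

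The lower genes were led by DKK1, a secreted antagonist that blocks the WNT co-receptors LRP5 and LRP6 (chr10:54074041-54077802, plus strand). DKK1 was at 451 and 495 CPM in DMSO and 369 and 381 CPM in Roc in MG-63. In Saos2, DKK1 was at 80.9, 84.4 and 87.5 CPM in DMSO and at 9.07, 10.1 and 10.7 CPM in Roc. It fell in Saos2 by 3.08, with a value of −0.34 in MG-63, and the response difference was −2.74 ± 0.12 (adjusted p = 6.6e-13, the smallest of all protein-coding genes with a mean of at least 2 CPM). Of 28 tested WNT genes 2 were higher and 8 lower (7.14% and 28.6%, against 10.6% and 5.97% of all), with a median of −0.23. Without DMSO replicate 1 of MG-63, 3 were lower. DKK3, a relative of DKK1 whose exons overlap those of USP47 on the other strand, and TCF7, a transcription factor of the pathway whose exons overlap SKP1, fell in Saos2 only (−1.07 ± 0.17, adjusted p = 8.6e-05, and −0.97 ± 0.15, adjusted p = 3.7e-05). GSK3B, a kinase that marks beta-catenin for destruction, rose in Saos2 (0.66 ± 0.12, adjusted p = 0.00022). The other higher member, the secreted antagonist SFRP2, chosen after its values were seen, was at 0.0333 and 0.926 CPM in DMSO and at 0 in both Roc libraries of MG-63, and at 3.18 to 5.19 CPM in the Saos2 libraries of DMSO and Roc, so no fold is given. Its call was lost without DMSO replicate 2 or either Roc library of MG-63.

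Cholesterol genes held the largest share of lower genes: 13 of 31 tested (41.9%), with 1 higher and a median of −0.53. Within the lines, 21 fell in Saos2 and 7 in MG-63. INSIG1, which holds the SREBP precursor in the endoplasmic reticulum when sterols are plentiful (chr7:155089486-155101945, plus strand), was at 133 and 150 CPM in DMSO and 96.9 and 121 CPM in Roc in MG-63. In Saos2, INSIG1 was at 109, 119 and 117 CPM in DMSO and at 26.6, 26.1 and 25.7 CPM in Roc. The lines started from similar levels and ended apart, since the MG-63 value of −0.37 was under the fold limit (response difference −1.77 ± 0.13, adjusted p = 3.1e-09).

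DHCR7, which makes cholesterol in the last step of one branch of the pathway, was at 28.4 and 29.5 CPM in DMSO and 14.5 and 19.5 CPM in Roc in MG-63, and at 22.2, 24.0 and 23.3 CPM in DMSO and 2.24, 3.14 and 2.20 CPM in Roc in Saos2. It fell in both lines with no overlap, and further in Saos2 (−2.42 ± 0.24, adjusted p = 1.2e-07). SREBF2, the transcription factor that drives these genes and chosen after its values were seen, fell in Saos2 only (−1.24 ± 0.15, adjusted p = 2.5e-06). Outside the list, NPC1, which exports cholesterol from lysosomes and overlaps RMC1 on the other strand, and IDH1, a source of NADPH in the cytosol, were also lower (−1.21 ± 0.12, adjusted p = 1.8e-07, and −1.16 ± 0.12, adjusted p = 2.5e-07).

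SREBP factors bind sterol regulatory elements, and their core was sought as CACNCCAC on both strands of the same part of the promoter windows. It was found in 3 of 25 cholesterol gene promoters, in 4.46% of tested protein-coding genes, in 4.7% of higher and 6.07% of lower genes and in 4.72% of all. The match of INSIG1, the member with the smallest p, is shown in capitals on the gene's strand, where it reads as the reverse complement of the core (GRCh38.p14 chr7:155297654-155297693, plus strand), 208 to 201 bases before the RefSeq start.
INSIG1: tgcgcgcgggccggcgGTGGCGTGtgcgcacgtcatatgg

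**Figure D4:**
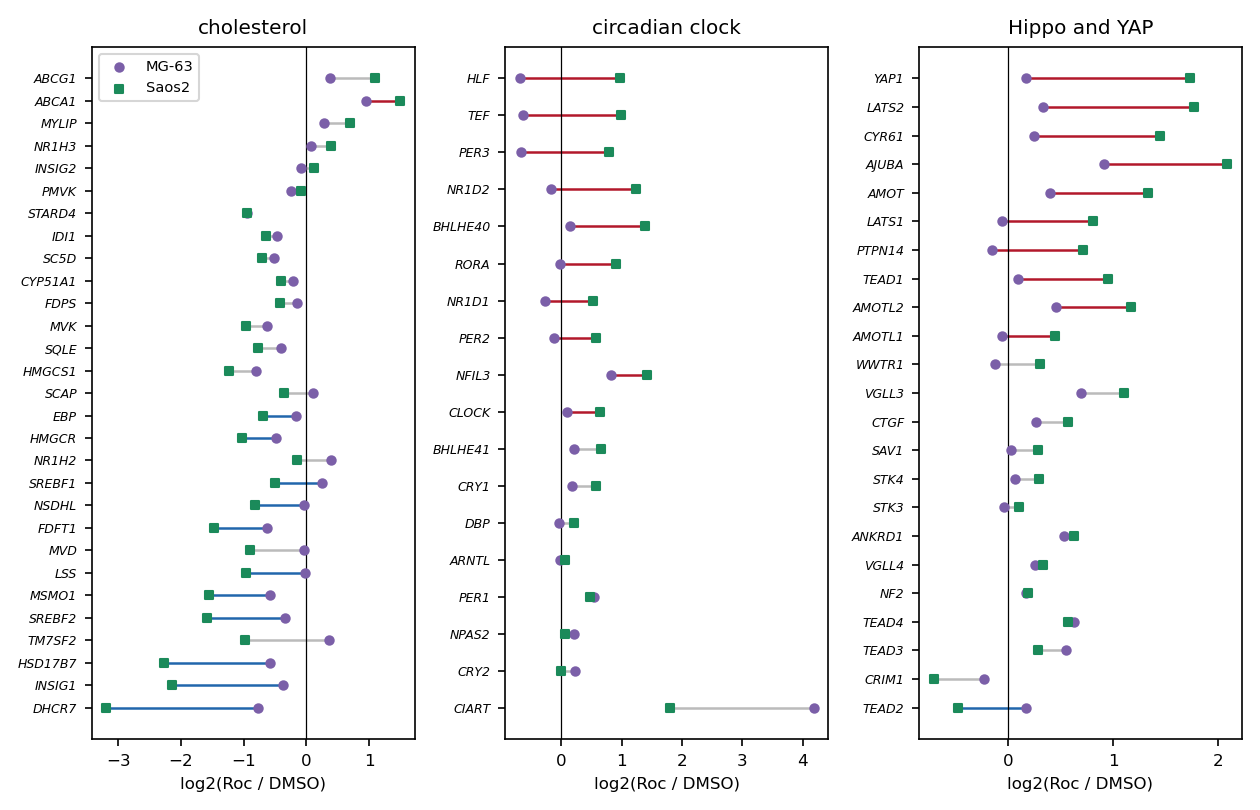
Log2 change from DMSO to Roc in MG-63 (circles) and Saos2 (squares) for tested members of the cholesterol, clock and Hippo lists (29 of 31, 18 of 18 and 23 of 23 drawn), joined by a red line where the response difference was called higher, blue where lower and grey where not called. Of the joining lines, 11 cholesterol ones are blue, and 10 clock and 10 Hippo ones are red.

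Integrin and laminin genes, which anchor cells to the matrix, were lower in 9 of 27 tested cases and higher in 1, with a median of −0.34. The shares were 33.3% and 3.7%, against 5.97% lower and 10.6% higher of all. None was called in MG-63 in either direction. ITGA4, which pairs with beta-1 to bind fibronectin and VCAM1 (chr2:182321929-182403667, plus strand), was at 113 and 113 CPM in DMSO and 129 and 142 CPM in Roc in MG-63, and at 1169, 1275 and 1297 CPM in DMSO and 566, 524 and 549 CPM in Roc in Saos2. It fell in Saos2 with no overlap (−1.45 ± 0.11, adjusted p = 5.2e-09). ITGA2, a collagen receptor subunit, was at 94.6 and 98.7 CPM in DMSO and 80.8 and 102 CPM in Roc in MG-63, and at 14.9, 13.7 and 15.5 CPM in DMSO and 2.91, 3.87 and 4.13 CPM in Roc in Saos2. Its MG-63 groups overlapped and its Saos2 groups did not (−1.92 ± 0.17, adjusted p = 4.2e-08). ITGA5, the fibronectin receptor subunit, and ITGA10, a collagen receptor subunit, also fell in Saos2 only, with −1.03 and −1.94.

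Other genes of the cell surface and matrix were lower too. Of 19 tested metalloproteinases and inhibitors 6 were lower and 1 higher (31.6% and 5.26%, against 5.97% and 10.6% of all), with a median of −0.40. ADAMTS5, which cleaves aggrecan, was at 40.9 and 44.8 CPM in DMSO and 47.8 and 51.6 CPM in Roc in MG-63, and at 49.4, 51.5 and 54.7 CPM in DMSO and 20.6, 24.1 and 22.7 CPM in Roc in Saos2. It fell in Saos2 only (−1.42 ± 0.14, adjusted p = 1.5e-07). TIMP2 and RECK, which inhibit metalloproteinases, were lower as well (−0.74 and −0.76). TIMP3, another inhibitor, chosen after its values were seen, was the 1 higher member and rose in Saos2 only (0.86 ± 0.20, adjusted p = 0.0032). SEMA5A, a guidance cue, fell in Saos2 only (−1.76 ± 0.17, adjusted p = 9.4e-08). In its list of semaphorins, plexins and neuropilins 7 of 27 were lower and 2 higher (25.9% and 7.41%). The lower count was 3 without DMSO replicate 2, 2 without Roc replicate 2 of MG-63 and 4 without DMSO replicate 1 of Saos2. LAPTM4B, a lysosomal membrane protein, was at 464 and 500 CPM in DMSO and 377 and 390 CPM in Roc in MG-63, and at 467, 492 and 485 CPM in DMSO and 167, 163 and 164 CPM in Roc in Saos2. From overlapping DMSO levels the Roc levels parted (−1.22 ± 0.10, adjusted p = 1.7e-08). GALNT2, which starts O-glycans, and SPOCK1, a matrix proteoglycan, fell in Saos2 only, with −1.52 and −1.22.

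Chaperones of the endoplasmic reticulum were lower in 5 of 27 tested cases (18.5%, against 5.97% of all) and higher in none, with a median of −0.20. They were lower in 3 cases without Roc replicate 2 of MG-63. CALR, a calcium-binding chaperone of glycoproteins, fell in Saos2 only (−0.92 ± 0.13, adjusted p = 1.1e-05), from 1303 to 1401 CPM in DMSO down to 554 to 649 CPM in Roc, as did PDIA4, a disulfide isomerase (−0.78 ± 0.13, adjusted p = 9.5e-05). Mitosis genes were lower in 5 of 40 tested cases and higher in 1 (12.5% and 2.5%, against 5.97% and 10.6% of all). They were lower in 3 cases without DMSO replicate 1 or Roc replicate 2 of MG-63. KIF20A, a kinesin of cytokinesis whose exons overlap BRD8 on the other strand, fell in Saos2 only (−0.88 ± 0.14, adjusted p = 4.9e-05). Of 39 tested DNA replication genes 1 was higher and 2 lower, with 4 higher and 12 lower at an unadjusted p under 0.05. The called shares were 2.56% and 5.13%, so the lower one was near the 5.97% of all genes. The lower count was 4 to 6 under other scalings, 5 with DESeq2, 6 without Roc replicate 1 of MG-63 and 5 without DMSO replicate 3 of Saos2. POLE2, a subunit of polymerase epsilon, fell in Saos2 only (−1.64 ± 0.23, adjusted p = 1.6e-05).

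Of 36 interferon-stimulated genes, 14 rose in MG-63 and 9 in Saos2. The median response difference was −0.36, with 6 genes lower and 3 higher in Saos2 (16.7% and 8.33%, against 5.97% and 10.6% of all). IFIT3, an antiviral RNA-response protein whose exons overlap LIPA on the other strand, was at 61.4 and 65.6 CPM in DMSO and 153 and 153 CPM in Roc in MG-63, and at 10.5, 14.3 and 15.2 CPM in DMSO and 17.6, 16.9 and 16.9 CPM in Roc in Saos2. It rose in MG-63, and its Saos2 value of 0.36 was under the fold limit (−0.91 ± 0.15, adjusted p = 0.00013). HERC5, the ligase that attaches ISG15, was at 3.23 and 5.29 CPM in DMSO and 10.9 and 10.3 CPM in Roc in MG-63, and at 29.7, 29.0 and 31.1 CPM in DMSO and 25.8, 25.3 and 24.4 CPM in Roc in Saos2. It rose in MG-63 only (−1.55 ± 0.21, adjusted p = 7.7e-06). IFIT1 and PARP14 had −0.68 and −0.60 and were likewise called in MG-63 only. Of the 3 higher members, IRF1, a transcription factor of interferon responses, rose in both lines, from 11.9 and 10.7 CPM to 19.3 and 18.7 CPM in MG-63 and from 16.03, 12.001 and 13.3 CPM to 38.3, 34.9 and 36.3 CPM in Saos2 (0.65 ± 0.19, adjusted p = 0.019). Its groups did not overlap in either line, and 5 of 22 alternatives lost the call. RSAD2 and CMPK2, like IRF1 chosen after their values were seen, had 0 counts in all 3 Saos2 DMSO libraries and reached at most 0.444 and 0.303 CPM with Roc, and without DMSO replicate 2 of Saos2 no member was higher, while 1 was higher without DMSO replicate 1 of either line.

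In 30 protein-coding genes the response difference was called and the lines were called in opposite directions, 20 falling in MG-63 and rising in Saos2 and 10 the reverse. The direction of the difference follows from how these genes were picked, so their values are a description. SOX9, a chondrocyte and skeletal progenitor factor (chr17:70117161-70122557, plus strand), was at 19.2 and 20.1 CPM in DMSO and 7.95 and 7.07 CPM in Roc in MG-63. In Saos2, SOX9 was at 50.3, 61.9 and 61.1 CPM in DMSO and at 124, 132 and 138 CPM in Roc. The groups overlapped in neither line, and the log2 changes were −1.40 and 1.18. The summed level of the 6 chondrocyte markers, SOX9 among them, went from between 20.1 and 21.0 CPM in DMSO to between 7.10 and 8.14 in Roc in MG-63. In Saos2 that sum lay between 992 and 1213 CPM in DMSO and between 861 and 944 in Roc, with ACAN at 0 in both, and its part in the SOX9 result was not tested.

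NAV3, a protein of microtubule tips (chr12:77718421-78606790, plus strand), was at 64.3 and 58.9 CPM in DMSO and 27.2 and 22.4 CPM in Roc in MG-63, and at 54.1, 55.1 and 66.2 CPM in DMSO and 86.9, 82.4 and 87.3 CPM in Roc in Saos2. Here the DMSO libraries of the lines overlapped and the Roc libraries lay on either side of them. KRCC1, a gene of little-known function, was at 23.8 and 22.9 CPM in DMSO and 14.7 and 13.9 CPM in Roc in MG-63, and at 22.0, 21.5 and 24.7 CPM in DMSO and 47.1, 52.3 and 50.5 CPM in Roc in Saos2. It showed the same parting from a shared DMSO level. ITPR1, a calcium channel of the endoplasmic reticulum, NTM, a neural adhesion protein, INPP4B, a phosphoinositide phosphatase, and ADGRG1, an adhesion receptor, had MG-63 changes between −0.71 and −0.61 and Saos2 changes between 0.55 and 1.38.

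Of those that rose in MG-63 and fell in Saos2, CYP1B1, a monooxygenase of steroids and xenobiotics whose exons overlap RMDN2 on the other strand, was at 4.46 and 5.41 CPM in DMSO and 8.75 and 11.6 CPM in Roc in MG-63, and at 36.3, 37.6 and 45.0 CPM in DMSO and 21.8, 20.5 and 19.5 CPM in Roc in Saos2. Neither line's groups overlapped, and the MG-63 libraries stayed below those of Saos2. HIST1H2AC, a histone H2A gene, was at 2.73 and 2.31 CPM in DMSO and 8.80 and 6.89 CPM in Roc in MG-63, and at 9.36, 11.3 and 11.96 CPM in DMSO and 6.19, 5.87 and 7.22 CPM in Roc in Saos2. The lines started apart and ended at overlapping levels. RSPO2, a secreted enhancer of WNT signaling, went from 6.96 and 8.01 CPM to 11.01 and 11.985 CPM in MG-63 and from 25.8, 27.2 and 31.9 CPM to 10.7, 12.4 and 11.3 CPM in Saos2, again to overlapping Roc levels. MT-ND6, a mitochondrial transcript, is among the 10, although reads of mitochondrial transcripts had been filtered out before alignment.

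Only 5 of the 30 kept all 3 calls in every alternative run (SOX9, KRCC1, PER3, CYP1B1 and HIST1H2AC). The others include genes near 0. PRKG2, a cGMP-dependent kinase, had 0 counts in both MG-63 Roc libraries and at most 0.174 CPM in MG-63 DMSO, and TCN2, a vitamin B12 carrier whose exons overlap PES1 on the other strand, had 0 in both MG-63 DMSO libraries and at most 0.208 CPM with Roc, so no fold is given. HTATIP2 was at 0 and 0.0579 CPM in DMSO and 1.08 and 0 CPM in Roc in MG-63, so that its rise there was that of 1 library. Without that library its response difference was 2.45 instead of −4.65.

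**Figure D5:**
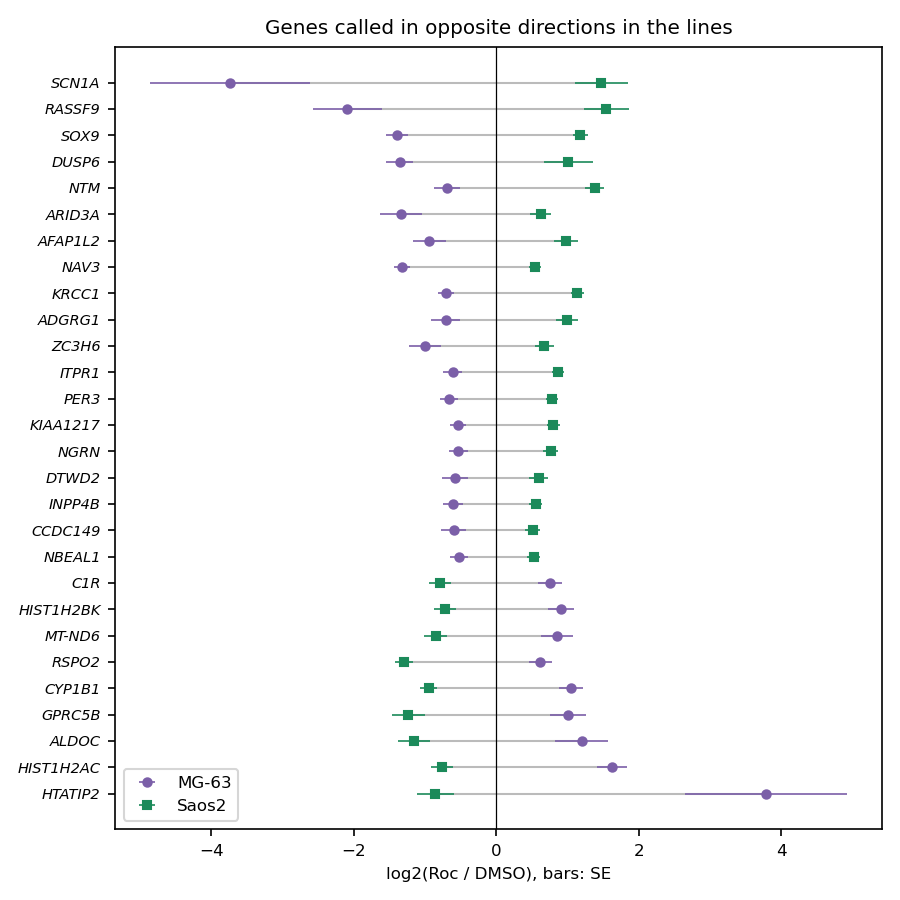
Log2 change from DMSO to Roc in MG-63 and in Saos2 for 28 of the 30 genes called in opposite directions, with bars of 1 standard error, leaving out PRKG2 and TCN2, each of which had a group with all libraries at 0. The points of the lines lie on either side of 0, since the genes were picked for that, and the wide bars of HTATIP2 and SCN1A belong to levels near 0 in MG-63.

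Bone and lineage genes were divided. Of 18 tested osteoblast transcription factors 3 were higher and 3 lower (16.7% each way, against 10.6% and 5.97% of all). RUNX2, the main factor of osteoblast commitment, was at 6.66 and 6.80 CPM in DMSO and 13.3 and 12.7 CPM in Roc in MG-63, and at 399.9, 434 and 449 CPM in DMSO and 462, 448 and 470 CPM in Roc in Saos2. It rose in MG-63 from a low level and was not called in Saos2, where it was high throughout (−0.84 ± 0.12, adjusted p = 1.9e-05). RUNX3 moved apart without a call in either line, with 0.495 in MG-63 and −0.36 in Saos2 (−0.86 ± 0.13, adjusted p = 3.6e-05), and RUNX1 rose in Saos2 only (1.19 ± 0.11, adjusted p = 4.2e-08). TNFRSF11B, which encodes osteoprotegerin, a decoy for the osteoclast factor RANKL, was at 619 and 643 CPM in DMSO and 235 and 260 CPM in Roc in MG-63, and at 7.30, 7.85 and 9.03 CPM in DMSO and 13.2, 11.8 and 9.34 CPM in Roc in Saos2. It fell in MG-63, while its Saos2 value of 0.495 lay just under the fold limit (1.84 ± 0.17, adjusted p = 7.8e-08). COL12A1, a fibril-associated collagen, rose in Saos2 by 1.05, while its MG-63 value of 0.36 was under the fold limit (0.69 ± 0.15, adjusted p = 0.0014). COL5A2, a chain of fibrillar type V collagen, rose in MG-63 only (−0.77 ± 0.12, adjusted p = 3.6e-05). PHEX, an endopeptidase of bone cells, fell in Saos2 only, from 2.52 to 2.79 CPM in DMSO down to 0.485 to 0.615 CPM in Roc (−2.05 ± 0.34, adjusted p = 0.00011).

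Among receptor tyrosine kinases 3 of 28 were higher and 6 lower (10.7% and 21.4%, against 10.6% and 5.97% of all). The lower count was 3 without Roc replicate 2 of MG-63 or Roc replicate 2 of Saos2, while 5 were higher without DMSO replicate 3 of Saos2. PDGFRA, a receptor for platelet-derived growth factor, was at 1584 and 1706 CPM in DMSO and 1074 and 1262 CPM in Roc in MG-63, and at 132, 145 and 145 CPM in DMSO and 217, 199.8 and 218 CPM in Roc in Saos2. The groups were apart in both lines, with a value of −0.49 in MG-63, just under the fold limit, and a rise of 0.59 in Saos2 (1.08 ± 0.12, adjusted p = 6.2e-07). MET, the receptor for hepatocyte growth factor, fell in Saos2 only, from 12.9 to 15.9 CPM in DMSO down to 7.73 to 8.93 CPM in Roc, and lay between 686 and 771 CPM in MG-63 (−0.86 ± 0.14, adjusted p = 0.00012).

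Genes of the translation apparatus, on which rocaglates act, are set beside the shares of all tested protein-coding genes, 10.6% higher and 5.97% lower. Of 55 tested cytosolic ribosomal protein genes edgeR called 0, with a median of −0.06 and 8 lower at an unadjusted p under 0.05, while DESeq2 called 1 lower, limma-voom 0, and edgeR without DMSO replicate 3 of Saos2 2 lower. EIF4A2, one of the eIF4A helicases that rocaglates bind, was at 919 and 942 CPM in DMSO and 1111 and 1171 CPM in Roc in MG-63, and at 336, 322 and 327 CPM in DMSO and 379, 414 and 415 CPM in Roc in Saos2. Both lines shifted up by less than the fold limit, with a response difference of 0.00 ± 0.10 and a 95% interval from −0.21 to 0.22. EIF4A1 had −0.22 ± 0.23 with an interval from −0.69 to 0.25, at levels of only 4.83 to 13.9 CPM, and its counts are uncertain because a readthrough gene shares its exons. Of 47 tested initiation factor genes 5 were higher (10.6%, the same share as among all genes) and none lower. The higher count was 2 or 3 under other scalings, without DMSO replicate 2 or Roc replicate 2 of MG-63, or without DMSO replicate 1 of Saos2. EIF5A2, a relative of the hypusinated factor eIF5A, led with 1.27 ± 0.16 (adjusted p = 2.9e-06), and EIF1, which guards start codon choice, had 0.79 ± 0.11 (adjusted p = 9.7e-06). Of 27 genes of the integrated stress response 2 were higher and 1 lower (7.41% and 3.7%).

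Of 19 tested genes of proteins that were also probed by Western blot, 2 were higher and 4 lower (10.5% and 21.1%, against 10.6% and 5.97% of all). PARP1, a DNA damage sensor, fell in Saos2 only (−0.92 ± 0.12, adjusted p = 3.7e-06). STAT3, a signal-dependent transcription factor, was at 191 and 189 CPM in DMSO and 233 and 244 CPM in Roc in MG-63, and at 253, 280 and 260 CPM in DMSO and 352, 345 and 344 CPM in Roc in Saos2. Roc libraries lay above DMSO libraries in both lines by less than the fold limit, and the response difference was 0.06 ± 0.11, with a 95% interval from −0.17 to 0.30. AKT1 had −0.05 ± 0.17 (interval −0.40 to 0.29) and IGF1R −0.38 ± 0.11 (interval −0.61 to −0.16), neither of them called.

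Outside protein-coding genes, the long noncoding RNA MAGI2-AS3 was at 50.5 and 54.5 CPM in DMSO and 46.5 and 43.9 CPM in Roc in MG-63, and at 24.0, 17.4 and 25.0 CPM in DMSO and 46.1, 53.8 and 61.4 CPM in Roc in Saos2. It rose in Saos2 only (1.4997 ± 0.20, adjusted p = 9.8e-06). OIP5-AS1, a long noncoding RNA also called Cyrano, was higher by 0.98 ± 0.12 (adjusted p = 1.4e-06), and NNT-AS1, antisense to NNT, by 0.85 ± 0.11 (adjusted p = 8.6e-06), and NNT-AS1 fell in MG-63. Over all biotypes 2450 of 18842 genes were called (13%).

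The response difference to DDR was fitted in the same way and shares the DMSO libraries, so values are set side by side only, at unequal doses. It was called in 2312 protein-coding genes (16.7%), 1141 higher (8.26%) and 1171 lower (8.48%). Among genes with a large Roc value, JUN had 2.15 for Roc and 0.53 for DDR, FGF2 2.51 and 0.58, and DKK1 −2.74 and −1.28. Others had near-equal values, such as SOX9 with 2.58 and 2.71, NAV3 with 1.87 and 1.81, ADAMTS5 with −1.42 and −1.38 and HIST1H2AC with −2.39 and −2.32. AJUBA had 1.17 for Roc and −0.76 for DDR. No test of Roc against DDR was run on these pairs.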

How the data were processed

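The authors filtered mitochondrial, ribosomal and transfer RNA reads of stranded mRNA libraries with Bowtie2 2.5.1, aligned the rest to GRCh37/hg19 with STAR 2.7.3a and deposited raw counts per gene from HTSeq 0.11.2, without normalization. For the strand setting of counting and for the annotation release, nothing was found in the labels or methods, so exon overlaps with genes on the other strand are named in the text. The 15 raw count columns were used. Some items are not reported here. The other 55 per-sample columns (normalized counts, and FPKM from Cufflinks 2.2.1) and the authors' DESeq2 tables of fold changes and p-values were not used.

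Genes were matched by ID over tables of 57773 and 58051 genes. In R 4.3.3 with edgeR 4.0.16, filterByExpr and TMM, all 15 libraries were fitted as 6 groups (glmQLFit, robust off, glmQLFTest), with Benjamini-Hochberg adjustment over 18842 genes. Replicates differed beyond sampling noise (chi-square per gene 6.85 to 26.5), so none was merged. The SE is the log2 value over the square root of F. On simulated data for this comparison over 18842 genes, 27.5% of genes changed by 0.5, 78.8% by 1 and 92.5% by 2 (log2) were called, and 5 unchanged genes were. Changed genes were drawn from those with a mean above 2 CPM. The change was put into Saos2 Roc alone, and changes of 0.5 were upward only. The rates thus do not cover genes of lower counts or changes in MG-63.

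The members and the 41 gene lists were chosen with earlier results of these data known. Named genes were the 15 each way with the smallest p and a mean of at least 2 CPM, the 10 each way with the largest difference, those called in opposite directions, the 4 of each list with the smallest p, the 4 noncoding genes each way with the smallest p, and genes the study names or blotted. Others are marked as chosen after their values were seen. Alternatives were DESeq2 1.42.0, limma-voom (limma 3.58.1), other scalings, filters and limits, matching by symbol, a replicate block and each library left out. Removal of a length and GC trend and thinning were chosen after seeing the data. Coordinates are GENCODE v44 lifted to GRCh37, and promoters are RefSeq windows, 10688 of them for the 13808 tested protein-coding genes.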

Additional observations from a re-analysis of the deposited data

Results flagged for a closer look

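By the test of the difference itself, the response to Roc differed between the lines in 2290 protein-coding genes, and 30 of these were called in opposite directions in MG-63 and Saos2. Of the 30, those that fell in MG-63 and rose in Saos2 had response differences (log2, Saos2 minus MG-63) of 5.22 for SCN1A, 3.63 for RASSF9, 2.58 for SOX9, 2.37 for DUSP6 and 2.08 for NTM. The values were 1.97 for ARID3A, 1.92 for AFAP1L2, 1.87 for NAV3, 1.84 for KRCC1 and 1.71 for ADGRG1. Next came ZC3H6 at 1.68, ITPR1 at 1.49, PER3 at 1.46, KIAA1217 at 1.34 and NGRN at 1.295. The smallest were DTWD2 at 1.17, INPP4B at 1.16, CCDC149 at 1.11 and NBEAL1 at 1.04.

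Of the genes that rose in MG-63 and fell in Saos2, the values were −1.54 for C1R, −1.63 for HIST1H2BK, −1.70 for MT-ND6, −1.92 for RSPO2 and −1.995 for CYP1B1. They were −2.24 for GPRC5B, −2.35 for ALDOC, −2.39 for HIST1H2AC and −4.65 for HTATIP2, the last resting on 1 MG-63 library. PRKG2 reached at most 0.174 CPM and TCN2 at most 0.208 CPM in any MG-63 library, with 1 MG-63 group of each at 0, so no fold is given for these.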

How the results depend on the processing

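The count of higher genes moved from 1465 to 974 with total counts alone. With an absolute log2 difference of at least 1 it was 412 higher and 283 lower, and with a test against 0.5 (glmTreat) 448 and 183. Leaving out 1 library at a time gave 1155 to 1647 higher and 452 to 946 lower genes, with the fewest lower genes without Roc replicate 2 of MG-63 and 548 without DMSO replicate 1 of MG-63. Within MG-63, 222 to 400 genes rose and 157 to 406 fell, and within Saos2 1852 to 2010 rose and 1519 to 1706 fell. With the replicate number as a block, the counts were 1535 higher and 899 lower, and 99.1% of the calls were kept. Same-numbered DMSO and Roc libraries correlated between −0.0177 and 0.0694, so the numbers were not taken to pair them. Over the refits, 68.1% (without Roc replicate 2 of MG-63) to 99.1% of the 2290 calls were kept and 0 were called in the opposite direction.

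The alternatives were followed for 213 genes with a called difference, which include genes that the text does not name. Of these, 159 were called alike in every alternative and 54 lost the call in at least 1. The response difference of HTATIP2 ranged from −7.92 to 2.45 and its MG-63 change from −3.31 to 7.07 over left-out libraries, reversed without Roc replicate 1 of MG-63, the library that held its reads. That of SP100 ranged from −5.02 to 0.251 and its Saos2 change from −5.20 to 0.0648, reversed without DMSO replicate 2 of Saos2. Simulated differences of 0.5, a size equal to the fold limit, were called in 27.5% of cases. The part of that limit in the low rate was not separated from that of depth and spread.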

Other observations

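SP100, a component of nuclear bodies, was at 24.8, 1824 and 23.2 CPM in the Saos2 DMSO libraries and at 24.6, 24.8 and 25.9 CPM with Roc, and between 150 and 174 CPM in MG-63. Its response difference of −4.45 ± 1.35 (adjusted p = 0.024) thus came from DMSO replicate 2 of Saos2. SLC44A2, a choline transporter, rose in MG-63 only, from 5.23 and 3.88 CPM in DMSO to 14.2 and 13.9 CPM in Roc, against 79.7 to 83.4 CPM in DMSO and 68.6 to 74.9 CPM in Roc in Saos2 (−1.82 ± 0.16, adjusted p = 3e-08).

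Histone genes were higher in 2 and lower in 5 of 17 tested cases (11.8% and 29.4%, against 10.6% and 5.97% of all). They were lower in 3 cases without DMSO replicate 2 or either Roc library of MG-63. H1F0, the linker histone of resting cells, was at 7.33 and 8.65 CPM in DMSO and 11.4 and 11.5 CPM in Roc in MG-63, and at 125, 133 and 129.5 CPM in DMSO and 427, 446 and 414 CPM in Roc in Saos2. It rose in both lines (1.22 ± 0.19, adjusted p = 5.3e-05). HIST1H2BK, a histone H2B gene, rose in MG-63 and fell in Saos2. GADD45A, a stress-induced growth inhibitor, rose in Saos2 only (1.06 ± 0.16, adjusted p = 2.9e-05). The 14 KLF factors held 5 higher genes (35.7%, against 10.6% of all), among them KLF3 (0.82 ± 0.12) and KLF7 (0.77 ± 0.12). The higher count was 3 without any 1 of 5 single libraries (both DMSO and Roc replicate 2 of MG-63, Roc replicates 2 and 3 of Saos2) and 2 or 3 under other scalings.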
